A study of Mus musculus with 20 samples.

Results

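Mesothelial cells form the single layer of flat epithelium that covers the lung, the chest wall, and the pleural face of the diaphragm and that secretes the fluid in which these surfaces slide. They carry keratins like other epithelia, vimentin like connective tissue cells, and a surface coat of mesothelin and mucins. The 10 genes described here mark this layer: Msln and Muc16 of the cell surface, the transcription factor gene Wt1, the uroplakin genes Upk1b and Upk3b, the keratin genes Krt8, Krt18, and Krt19, the adhesion-type receptor gene Lrrn4, and Calb2, which encodes calretinin. They were chosen by name, and all 10 were on the array, with 11 of its 55681 noncontrol probes. Of these 11 probes, 10 passed the filter on dim signals, as did 36920 probes in all, so that 9 of the 10 genes could be tested.

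The 20 frozen diaphragms came from C57Bl/6 females in 5 groups of 4, and were taken 12 weeks after a single injection into the pleural cavity at 8 weeks of age. The control mice received 0.5% bovine serum albumin (BSA) in saline, which also carried the fibers. SFA mice received 25 μg of shortened amosite asbestos, and LFA mice received 25 μg of amosite enriched for long fibers. NTS mice received 5 μg of short carbon nanotubes and NTL mice 5 μg of long ones, so the asbestos and nanotube groups differed in dose as well as in material. Each mouse had its own array.

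Each value below is a log2 level, which sets the background-subtracted intensity of a probe against the 75th percentile of all probes on that array. Levels of different probes are not compared. To be called, a gene had to differ by 2-fold or more and to have a limma p below 0.05 once adjusted over all 36920 probes by the method of Benjamini and Hochberg. The 75th percentile of the signal ran from 292 to 991 between arrays, and 53.0% to 68.1% of spots were well above background. Both of the lowest values were those of control replicate 2.

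The arrays carried the transcripts of the labelled tissue and, unevenly, those of others. All 12 skeletal muscle genes were well above background on the 20 arrays. Of 9 lung epithelium genes, 3 passed the filter, with Sftpd well above background on 19 arrays, Scgb1a1 on 18, and Ager on 6. The surfactant gene Sftpc was well above background on 3 arrays. The mean of 12 liver genes, relative to the control mean on the log2 scale, was between 6.31 and 7.80 in SFA replicate 2, LFA replicates 1 and 3, and NTS replicates 3 and 4, and between −2.69 and 3.99 on the other arrays. As the RNA came from whole tissue, fewer mesothelial cells and less RNA of a gene per mesothelial cell cannot be told apart.

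Mesothelial genes as a group were not called in the diaphragms of long-fiber mice. Against control, limma called 0 of the 9 tested genes in LFA, where 3.96% of all tested probes were called, and 0 of 9 in NTL, where 6.8% were called. It also called 0 of 9 in SFA and 0 of 9 in NTS, where 0% of probes were called. At an unadjusted p under 0.05 there were 1 gene in LFA, 0 in NTL, 0 in SFA, and 2 in NTS. The unequal-variance analysis of variance that the study's methods name, run over all 5 groups, had 0 of 9 below an adjusted p of 0.05, with Wt1 lowest at 0.131. The median change of the 9 genes was 0.62 in LFA, beside −0.28 over all probes, and −0.37 in NTL, beside −0.25 over all probes. It was −0.20 in SFA and −0.73 in NTS, where the medians over all probes were −0.11 and −0.06. Means were higher than in control for 7 genes in LFA and for 2 in NTL. The 7 in LFA included Krt8 and Krt18, whose changes were −0.06 and −0.21 without the 5 arrays highest in liver genes. These comparisons share the control arrays.

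**Figure D1:**
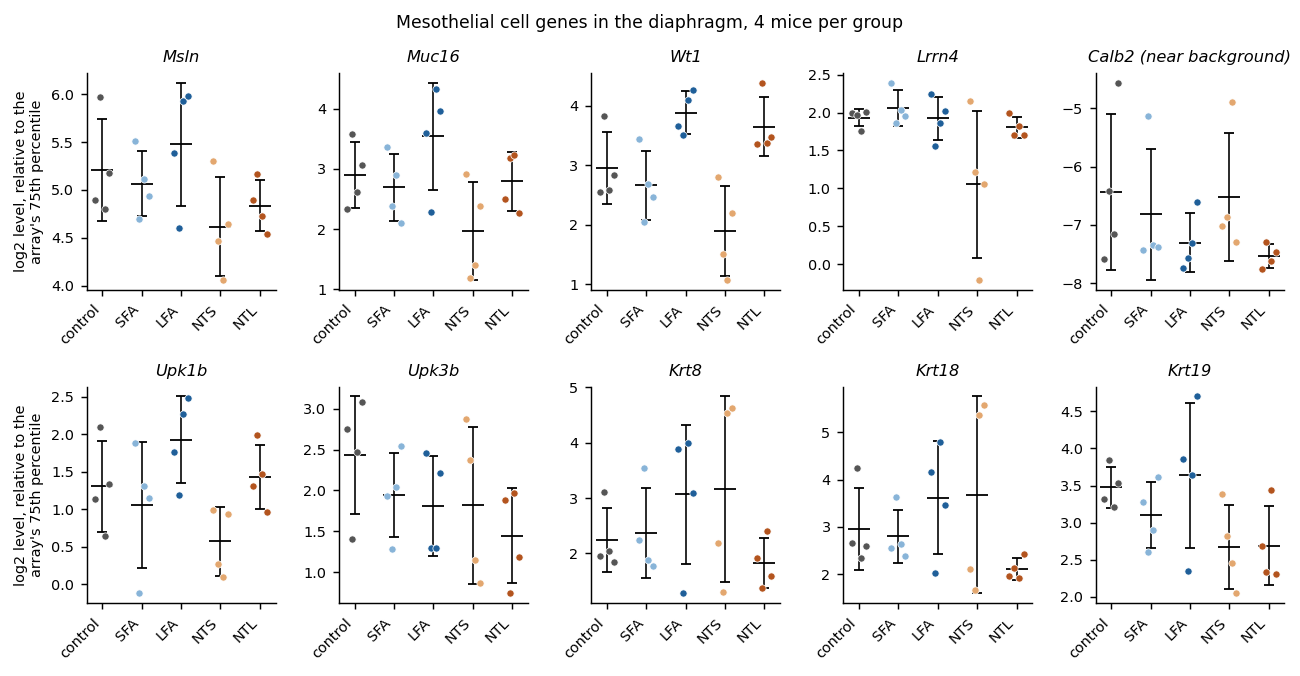
Log2 level of each gene on each array, relative to the 75th percentile of the array, in the 5 groups; points are mice, and the black marks give the mean and SD of 4 mice. Each gene has its own vertical scale. Wt1 lies at 3.36 or above on all 8 long-fiber arrays, and Krt8 and Krt18 spread widely in LFA and NTS.

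The transcription factor gene Wt1 was higher with long than with short nanotubes. WT1 is a zinc finger protein needed for the development of the mesothelium and is retained by adult mesothelial cells. Its probe lies at chr2:105013656-105013715 (NCBI37, plus strand) and was well above background on all 20 arrays. Wt1 was at 3.36, 4.38, 3.37, and 3.47 in the 4 NTL mice. The NTS mice had 2.80, 1.51, 1.07, and 2.19. Every NTL mouse was above every NTS mouse, as was the case for 7.67% of tested probes. The difference was 1.75 on the log2 scale (SE 0.40, 95% interval 0.91 to 2.59, adjusted p = 0.0105 by limma), or 3.37-fold.

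Wt1 was thus 1 of 9 mesothelial genes called between NTL and NTS, a comparison in which 7.58% of all probes were called and 4.92% were called higher. The call depended on the fit. With slide as a block the difference was 1.87 and the adjusted p 0.0655, and with only the NTL and NTS arrays in the fit the adjusted p was 0.0546. Over the 5 groups, the methods' analysis of variance gave 0.131. Without the 5 arrays highest in liver genes, among them 2 of the 4 NTS arrays, the difference was 1.49 and the adjusted p 0.0511.

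Asbestos gave the same order of levels for Wt1. The LFA mice were at 3.66, 3.50, 4.10, and 4.26 and the SFA mice at 3.44, 2.05, 2.69, and 2.47. Every LFA mouse was above every SFA mouse, as for 3.15% of tested probes. The difference of 1.22 (SE 0.40, 95% interval 0.38 to 2.06) did not pass the test, with an adjusted p of 0.205 by limma, and limma called 0 of 9 mesothelial genes between LFA and SFA, against 1.16% of all probes and 1 of 9 at an unadjusted p under 0.05. The length effects of asbestos and nanotubes on Wt1 differed by −0.53 (SE 0.57, 95% interval −1.72 to 0.65), with an adjusted p of 1 in limma's interaction test.

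Control mice lay between the long and the short fibers, at 2.55, 3.83, 2.59, and 2.83. Ordered by group mean, Wt1 was at 3.88 ± 0.36 in LFA, 3.65 ± 0.49 in NTL, 2.95 ± 0.60 in control, 2.66 ± 0.58 in SFA, and 1.89 ± 0.76 in NTS (SD, n = 4 each). SFA and NTS were not compared, and the other neighbors in this order did not differ by an amount that passed the test. LFA exceeded control by 0.93 (adjusted p = 0.167), NTL exceeded control by 0.70 (adjusted p = 0.310), LFA and NTL differed by 0.23 (95% interval −0.61 to 1.07), and SFA differed from control by −0.28 (95% interval −1.12 to 0.56). NTS differed from control by −1.05 (95% interval −1.89 to −0.21, adjusted p = 1). Control replicate 2, the array with the lowest 75th percentile of signal, overlapped the long-fiber mice. Without it the changes were 1.23 in LFA (adjusted p = 0.0968 by limma) and 0.99 in NTL (adjusted p = 0.161).

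The arrays lay on 3 slides, each scanned in its own session, and every group was spread over 2 or 3 slides. On the slide that held both nanotube groups, the NTL mouse was 1.21 above the mean of the 2 NTS mice for Wt1. For LFA against SFA the differences were 0.91 and 0.92 on the 2 slides that held both. Against control, Wt1 was 0.47 to 1.36 higher in LFA on 3 slides and 0.17 and 1.15 higher in NTL on 2 slides. All of these within-slide differences had the sign of the pooled ones.

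**Figure D2:**
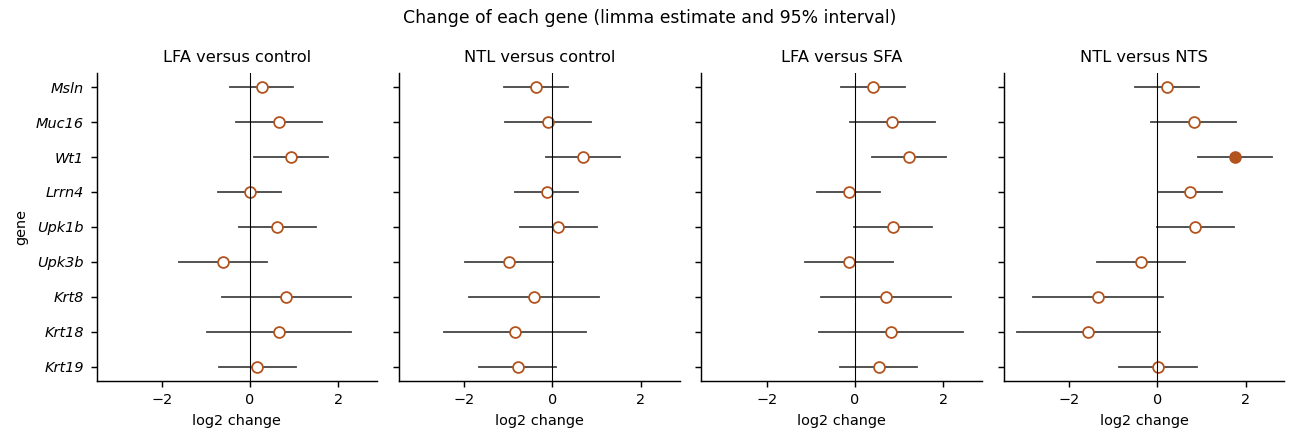
Log2 change of each of the 9 tested genes in 4 comparisons, with the 95% interval from limma as a line; a filled point is a called change and an open point is not. The filled point is Wt1 in NTL against NTS at 1.75, and the intervals of Krt8 and Krt18 are the widest.

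Mesothelin and mucin 16 transcripts varied together from mouse to mouse, without a called change between groups. Mesothelin, the product of Msln, is a glycoprotein anchored to the mesothelial surface, and it binds mucin 16, a large membrane mucin known in patients as CA125. The Msln probe lies at chr17:25885569-25885628 and the Muc16 probe at chr9:18299899-18299958 (NCBI37, minus strand). Msln was at 4.89, 5.97, 4.80, and 5.18 in control, and at 5.39, 4.60, 5.93, and 5.98 in LFA. The NTL values of 4.90, 5.17, 4.73, and 4.54 lay within or just below the control range. SFA mice had 5.51, 4.70, 5.11, and 4.94, and NTS mice had 5.30, 4.47, 4.06, and 4.64.

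All 5 groups overlapped for Msln, and the LFA change of 0.26 (95% interval −0.46 to 0.98) and the NTL change of −0.37 (95% interval −1.10 to 0.35) were not called (adjusted p = 0.659 and 0.559). Muc16 was at 2.33, 3.58, 2.61, and 3.06 in control, and at 3.59, 2.29, 4.32, and 3.96 in LFA. SFA mice had 3.37, 2.39, 2.90, and 2.11, and NTS mice had 2.91, 1.19, 1.40, and 2.39. It was at 2.50, 3.18, 3.23, and 2.26 in NTL, a change of −0.10 (95% interval −1.07 to 0.87). In LFA 3 mice were above all control mice and LFA replicate 2 was below them, so that the change of 0.65 (SE 0.46, adjusted p = 0.402) was smaller than the spread. Over the 20 arrays Msln and Muc16 were correlated at r = 0.89, and Msln was the gene second most like Muc16, behind 6430519N07Rik at 0.91.

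Uroplakins are membrane proteins best known from the lining of the bladder, and Upk1b and Upk3b are also expressed in mesothelium. Their patterns over the 20 arrays were unlike. Upk1b (probe chr16:38773859-38773918, minus strand) was at 1.14, 2.10, 0.64, and 1.34 in control, 1.76, 1.19, 2.27, and 2.49 in LFA, and 1.31, 1.99, 1.47, and 0.97 in NTL. The SFA mice were at 1.88, −0.12, 1.31, and 1.15 and the NTS mice at 0.99, 0.27, 0.09, and 0.94. Means were higher with long than with short fibers by 0.87 for asbestos (adjusted p = 0.401) and by 0.86 for nanotubes (adjusted p = 0.206), neither of which was called.

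Upk3b (probe chr5:136520522-136520581, plus strand) had a lower mean than control in every fiber group, and none of these changes was called. The control mice were at 2.76, 1.41, 2.47, and 3.08, and the NTL mice at 1.88, 0.74, 1.97, and 1.19, a change of −0.98 (SE 0.47, adjusted p = 0.218). LFA mice were at 2.46, 1.29, 1.29, and 2.21, a change of −0.62 (adjusted p = 0.439). The SFA mice were at 1.93, 1.28, 2.04, and 2.54 and the NTS mice at 2.88, 2.37, 1.15, and 0.87, with changes of −0.48 and −0.62. Long fibers differed from short ones by −0.13 for asbestos and by −0.37 for nanotubes, and neither difference was called. All groups overlapped the control range. Control replicate 2, which had the highest Upk1b of its group, had the lowest Upk3b, and without it the NTL change was −1.32. Across the 20 arrays Upk1b and Upk3b had r = 0, while Upk1b and Wt1 had r = 0.89. Of the bladder uroplakin genes, Upk2 changed against control by −1.75 in LFA (adjusted p = 0.0614) and by −1.64 in NTL (adjusted p = 0.062). Upk1a changed by −0.04 and −0.36, and Upk3a was well above background on 2 arrays and was not tested.

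Lrrn4, a leucine-rich repeat receptor gene used to mark mesothelial cells in the mouse, ran from 1.56 to 2.39 in the 4 groups other than NTS. Its probe lies at chr2:132694490-132694549 (NCBI37, minus strand). Levels were 2.0, 1.97, 1.76, and 2.01 in control, 2.25, 1.56, 1.86, and 2.02 in LFA, and 1.99, 1.70, 1.82, and 1.71 in NTL. The SFA mice were at 2.39, 1.86, 2.04, and 1.95. In the NTS mice they were 2.15, 1.22, −0.21, and 1.06, with 3 of 4 mice below all control mice. The NTL mean exceeded the NTS mean by 0.75 (SE 0.34, adjusted p = 0.178). Without NTS replicate 1 the difference was 1.11 and was called (adjusted p = 0.0305). Without NTS replicates 3 and 4, which were rich in liver transcript, it was 0.12. Against control, NTS had a change of −0.88 (95% interval −1.59 to −0.16, adjusted p = 1), and of −0.24 without replicates 3 and 4. The difference from control was −0.01 in LFA (95% interval −0.72 to 0.70) and −0.13 in NTL (95% interval −0.84 to 0.58).

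Calb2 was below the range that these arrays could measure. Calretinin is a calcium-binding protein used to diagnose human mesothelioma. The designed 60-base probe, shown because it covers a gene that a reader would look for first, lies at chr8:112678555-112678614 (NCBI37, minus strand) and reads, 5′ to 3′:
Calb2 probe: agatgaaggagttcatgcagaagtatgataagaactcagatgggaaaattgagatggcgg
The signal was well above background on 1 of 20 arrays, control replicate 4, at a level of −4.57. The other arrays ran from −7.76 to −4.89, not well above background, and their order carries no meaning. Calb2 was not tested and no fold is given.

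Keratins 8 and 18 form the paired filaments of simple epithelia, including mesothelium, bile duct, and hepatocytes, and keratin 19 is found in mesothelium and bile ducts but not in normal hepatocytes. Krt8 and Krt18 lie 23873 bases apart on chromosome 15 of GRCm38.p6. The probe of Krt18 lies at chr15:101862341-101862400 (NCBI37, plus strand), and its levels had the widest range of the 9 genes. It was at 2.67, 4.24, 2.34, and 2.60 in control, 4.17, 2.02, 4.80, and 3.47 in LFA, and 1.97, 2.13, 1.91, and 2.43 in NTL. The SFA mice were at 2.56, 3.63, 2.64, and 2.38 and the NTS mice at 2.11, 1.66, 5.37, and 5.58.

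The arrays with the most liver transcript were high in Krt18. NTS replicates 3 and 4, with liver means of 7.80 and 7.79, had the 2 highest values, and LFA replicate 3 came next. LFA replicate 1 and SFA replicate 2, the other 2 arrays rich in liver transcript, were at 4.17 and 3.63. Control replicate 2 was an exception, with a Krt18 level of 4.24 at a liver mean of −1.39. Its mean over 8 epithelial junction genes was 1.36, against −0.47 to −0.44 in the other control mice. This mean was also high in SFA replicate 2 (1.49) and NTS replicates 3 and 4 (1.4 and 1.19). It was 1.28 in NTL replicate 3, where Krt18 was at 1.91, the lowest of its group. The part of liver and junction transcripts in the Krt18 values was not tested.

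Krt8, by its brighter probe at chr15:101827138-101827197 (NCBI37, minus strand), was at 1.96, 3.11, 2.04, and 1.85 in control. The LFA mice were at 3.89, 1.28, 4.00, and 3.10, and the NTS mice at 2.18, 1.31, 4.53, and 4.63. The SFA mice were at 2.25, 3.54, 1.88, and 1.78 and the NTL mice at 1.92, 1.37, 2.41, and 1.59. The 5 arrays rich in liver transcript had the 5 highest levels of Krt8. Its correlation with Krt18 over the 20 arrays was 0.94, the highest of any gene for Krt8. The LFA changes were 0.82 for Krt8 (adjusted p = 0.486) and 0.65 for Krt18 (adjusted p = 0.623). Without the 5 arrays rich in liver transcript they were −0.06 and −0.21, so the sign of the LFA change rested on these arrays. They include LFA replicates 1 and 3 and NTS replicates 3 and 4, the highest of their groups for both genes, and no control array. Lower LFA and NTS means follow from leaving those values out, so the omission does not test the part of liver transcript. Krt18 was lower in NTL than in NTS by mean, with a difference of −1.57 (adjusted p = 0.214), and the difference was 0.23 without the same arrays. Across fiber types, the length effect on Krt18 differed by 2.38 (95% interval 0.09 to 4.68, adjusted p = 1), or −0.01 without these arrays. In that interaction test limma called 0 of 9 genes, with 1 at an unadjusted p under 0.05, and 0% of all probes.

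The promoters of Krt8 and Krt18 are shown because these 2 genes moved together more closely than any other pair of the 9. The RefSeq table of GRCm38.p6 held promoters of 5 of the 10 genes: Krt8, Krt18, Lrrn4, Muc16, and Upk3b. Each sequence below has 250 bases before the annotated start and 20 bases from it, 5′ to 3′ on the strand of the gene. Capitals mark the letters TATAA, the core of a TATA box, and AGGTCA, a hexamer bound by many nuclear receptors, each on either strand. In Krt8, TATAA overlaps TTATA, its reverse complement.
Krt8, chr15:102004323-102004592, minus strand: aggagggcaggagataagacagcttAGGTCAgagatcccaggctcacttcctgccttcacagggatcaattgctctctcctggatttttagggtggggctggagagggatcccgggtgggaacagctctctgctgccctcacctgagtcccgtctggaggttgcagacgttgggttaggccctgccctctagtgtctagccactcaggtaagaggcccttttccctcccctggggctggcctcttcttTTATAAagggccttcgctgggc
Krt18, chr15:102027966-102028235, plus strand: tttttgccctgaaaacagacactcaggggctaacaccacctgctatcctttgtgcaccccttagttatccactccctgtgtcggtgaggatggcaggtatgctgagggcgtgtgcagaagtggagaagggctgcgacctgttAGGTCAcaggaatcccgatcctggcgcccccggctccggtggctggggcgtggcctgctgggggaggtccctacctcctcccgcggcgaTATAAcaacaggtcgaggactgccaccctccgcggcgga
Both promoters hold TATAA and AGGTCA, and neither holds the GC box GGGCGG. The position of TATAA differs, since it spans the annotated start in Krt8 and lies wholly before the start in Krt18. Whether either stretch serves as a TATA box was not tested. Of 32851 promoter windows of this length, 23.7% hold TATAA, 15% hold AGGTCA, and 34.1% hold GGGCGG. These motifs were chosen after the sequences had been read, and AGGTCA is also in the windows of Lrrn4 and Upk3b.

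**Figure D3:**
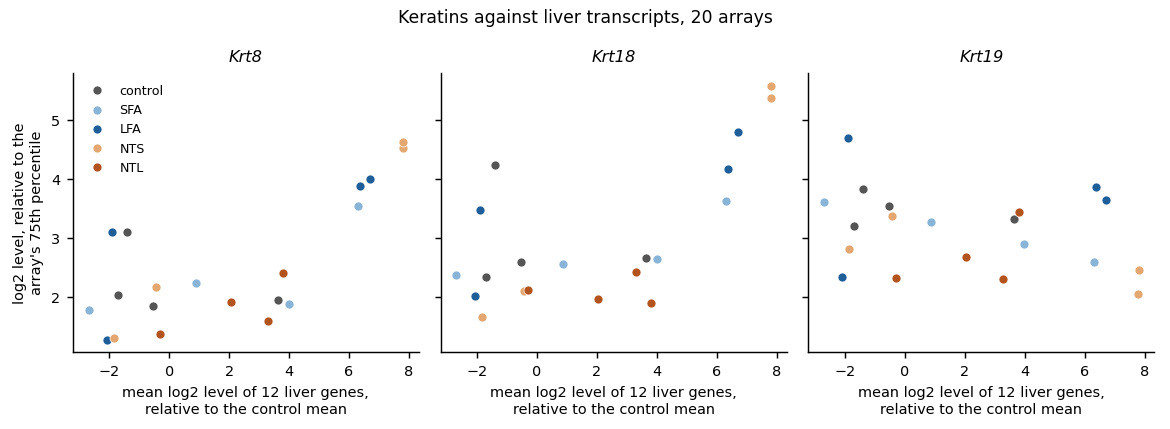
Log2 level of Krt8, Krt18, and Krt19 on each of the 20 arrays against the mean of 12 liver genes on the same array, relative to the control mean; each point is a mouse, colored by group. The 5 arrays with liver means of 6.31 to 7.80 hold Krt18 levels of 3.63 to 5.58, and Krt19 levels of 2.05 to 3.86, of which 2.05 in NTS replicate 4 is the lowest of all arrays.

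Krt19 did not follow this pattern. Its probe at chr11:100002392-100002451 (NCBI37, minus strand) is given here with the dimmer probe of Krt8 at chr15:101828827-101828886, since these oligos measured the keratin results of this and the next paragraph:
Krt19 probe: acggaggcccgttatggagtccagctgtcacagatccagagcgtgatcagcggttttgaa
Krt8 dimmer probe: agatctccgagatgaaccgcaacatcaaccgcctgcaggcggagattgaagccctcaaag
Krt19 was at 3.32, 3.84, 3.21, and 3.54 in control and at 3.86, 2.35, 3.64, and 4.70 in LFA. In NTL it was at 2.68, 2.33, 3.44, and 2.31, with 3 of 4 mice below all control mice, and the change was −0.79 (SE 0.42, 95% interval −1.66 to 0.09, adjusted p = 0.264). The NTS mice were at 3.38, 2.82, 2.46, and 2.05, a change of −0.80 (adjusted p = 1). LFA exceeded NTL by 0.95 (adjusted p = 1), and limma called 0 of 9 genes between these groups, where 1 of 9 had an unadjusted p under 0.05 and 0% of all probes were called. Over the 20 arrays Krt19 had r = 0.02 with Krt18 and 0.75 with Msln.

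The 2 Krt8 probes disagreed on some arrays. The dimmer probe lies upstream of the brighter one on the transcript. Control replicate 2 had the highest level of its group on the brighter probe, 3.11, and the lowest on the dimmer one, −1.77 against −0.33 to 0.25. The same array stood high in an index of RNA ends, the mean difference between the 3′ and the 5′ probe over 2560 transcripts with probes at least 1000 bases apart. Relative to the mean of all arrays, this index was 0.54 in control replicate 2 and −0.47 to −0.20 in the other control mice. It was 0.63 in SFA replicate 1, 0.59 in LFA replicate 3, 0.56 in NTL replicate 2, and 0.43 in NTS replicate 4, and at or below 0.27 elsewhere. Control replicate 2, SFA replicate 1, and NTL replicate 2 also had the highest Wt1 of their groups. LFA replicate 3 and NTS replicate 4 did not, at 4.10 against 4.26 in LFA replicate 4 and 2.19 against 2.80 in NTS replicate 1. Whether RNA integrity set these levels was not tested. With the index as a covariate, the Wt1 difference between NTL and NTS was 1.47 (adjusted p = 0.00393), and that between LFA and SFA was 1.19 and was called (adjusted p = 0.0434).

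A ratio of 2 genes on the same array takes out the scaling of the array, but it also holds the changes of the reference gene. Against control, those of Msln were 0.26 in LFA, −0.37 in NTL, −0.15 in SFA, and −0.59 in NTS. Msln served as the reference, a choice made after its values had been seen, so the result is given without a test. The log2 ratio of Wt1 to Msln, with the control mean set to 0, was −0.08, 0.12, 0.05, and −0.09 in the control mice. It was 0.53, 1.16, 0.44, and 0.55 in LFA and 0.72, 1.47, 0.90, and 1.2 in NTL. The SFA mice were at 0.19, −0.38, −0.15, and −0.21, and the NTS mice at −0.23, −0.69, −0.73, and −0.19.

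All 8 long-fiber mice were therefore above all 12 other mice in Wt1 relative to Msln. Of the tested probes, 0.413% had a ratio to Msln that separated the arrays in this way, and for a level alone the share was 1.42%. Msln was chosen after its values had been seen, and it was correlated with Wt1 (r = 0.73). The shares therefore do not measure how rare the separation of Wt1 is. By level alone Wt1 did not separate them, because control replicate 2 and SFA replicate 1 reached into the long-fiber range. Of the other 7 genes set against Msln, 0 separated the mice in this direction. Upk1b came near, with ratios of 0.24 to 0.73 in the long-fiber mice and, in the rest, up to 0.28 in SFA replicate 1. Within slides, the ratio of Wt1 to Msln was higher by 1.18 in NTL than in NTS on the slide that held both, and by 0.63 and 1.34 in LFA than in SFA.

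**Figure D4:**
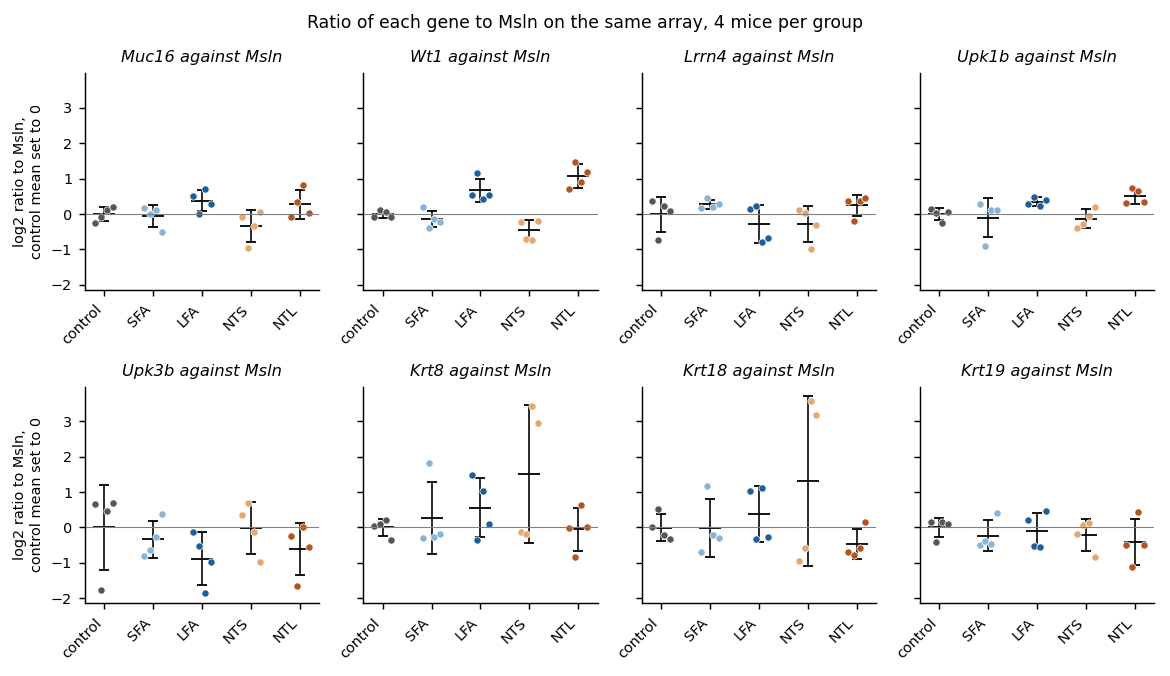
Log2 ratio of each of 8 genes to Msln on the same array, with the control mean set to 0; points are mice, and the black marks give the mean and SD of 4 mice. In the panel of Wt1 the 8 long-fiber mice lie between 0.44 and 1.47 and the other 12 at or below 0.19.

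Some mice were high or low for most of the genes at once. LFA replicate 2 had the lowest level of its group for 8 of 9 genes and lay below all control mice for 7, while LFA replicates 3 and 4 lay above all control mice for 5 and 6 genes. Control replicate 2 was highest of its group for 7 genes. In NTS, replicate 1 was highest for 7 of 9, and replicates 2 and 3 lay below all control mice for 8 and 7. SFA replicate 2 was lowest for 6. The share of all tested probes beyond the control range on each array was not counted. Whether these counts are particular to the mesothelial genes therefore cannot be told. The mean of the 9 genes, relative to control, was −0.59 in LFA replicate 2 and 0.63 to 0.76 in the other LFA mice. For Wt1, LFA replicate 2 was lowest of its group too, but at 3.50 it was above 3 of the 4 control mice.

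Among the patterns most like those of the mesothelial genes over the 20 arrays, Ezr recurred. It encodes ezrin, which ties the membrane of microvilli to actin, and mesothelial cells bear many microvilli. Ezr was among the 3 most similar genes for Msln (r = 0.92), Muc16 (r = 0.87), and Upk1b (r = 0.92). Msln was also close to Ccdc64 (0.93) and Faim2 (0.92), and Upk1b to Tmeff2 (0.92) and Mapkapk3 (0.91). For Wt1 the 3 most similar genes were Bai2 (0.98), Fosl2 (0.96), and Fndc1 (0.95), of which Fosl2 encodes an AP-1 transcription factor. For Krt18 they were AU022252 (0.96), Pex11c (0.95), and Gstt1 (0.95), for Krt8 after Krt18 they were Ehd3 and Epb4.1l4b (0.94 each), and for Krt19 they were Kcnab1 (0.86), Alox12e (0.83), and Igfbp6 (0.81). Upk3b was closest to Akt2 (0.90), Efnb3 (0.86), and an unnamed transcript (0.86), and Lrrn4 to an unnamed transcript (0.88) and Plxna4 (0.83). Arrays of a group share their treatment, and the index of RNA ends differed between arrays, so the correlations are descriptions of the 20 arrays.

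A further list of 10 mesothelial genes gave calls in both directions. Pdpn, which encodes the membrane protein podoplanin of mesothelium and lymphatic vessels, was 1.04 higher in NTL than in control (SE 0.31, adjusted p = 0.0492) and 1.53 higher than in NTS (adjusted p = 0.00488). Cldn15, a claudin gene, was lower in NTL than in control, with a change of −1.26 (SE 0.38, adjusted p = 0.0492). Aldh1a2, the retinoic acid synthesis gene of mesothelium, was 1.19 higher in NTL than in NTS (adjusted p = 0.0151). In LFA against control 0 of 10 were called, with 3 at an unadjusted p under 0.05, and Pkhd1l1 had the largest change (1.39, adjusted p = 0.158), followed by Pdpn (0.80, adjusted p = 0.136) and Aldh1a2 (0.69, adjusted p = 0.159). The median of the list was 0.10 in LFA and −0.43 in NTL.

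A list of mesenchymal transition genes gave calls in both long-fiber groups. In this transition, epithelial cells lose junctions and make matrix. Fn1, which encodes fibronectin, rose by 2.33 in LFA (SE 0.53, adjusted p = 0.0204) and by 2.38 in NTL (adjusted p = 0.00999), and the repressor gene Zeb2 rose by 1.02 in NTL (adjusted p = 0.01). These were 1 and 2 of 11 tested genes, beside 3.96% and 6.8% of all tested probes called. As the RNA came from whole tissue, the cells that carried these changes were not identified, and a transition was not tested. Between NTL and NTS, 5 of 11 were called higher, beside 4.92% of all probes, among them Fn1 (1.73), Zeb2 (1.44), Snai1 (1.24), and Vim (1.01). Snai1 and Vim, which were not called against control, were chosen after their values were seen. Epithelial junction genes gave 0 calls of 8 in LFA, with 0 at an unadjusted p under 0.05, and 0 of 8 in NTL, with 2. Their median change was 0.87 in LFA and 0.67 in NTL. The changes with the greatest size in LFA were those of Cldn3 (1.47, adjusted p = 0.472), Cdh1 (1.37), Epcam (1.11), and Cldn7 (0.88). Epcam had a change of 2.24 in NTL (adjusted p = 0.0939), followed by Cldn7 (1.47), Spint1 (0.97), and Cdh1 (0.94).

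Among 8 other keratin genes, Krt17 was called lower in NTL than in control (adjusted p = 0.0392). Its probe was well above background on 6 of 20 arrays, so the size of the difference is not given, and 0 of the 8 were called in LFA, where 1 had an unadjusted p under 0.05. SFA replicate 2 and NTL replicate 3 stood high in this list, at 2.32 and 1.71 relative to control. Bile duct genes gave 1 call of 6 in each long-fiber group, Spp1, with a change of 2.94 in LFA (adjusted p = 0.0442) and of 3.27 in NTL (adjusted p = 0.0182). Spp1 encodes osteopontin, which macrophages also make.

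Markers of other cell types also differed from control in the long-fiber groups. Of 9 macrophage genes, 7 were called higher in LFA and 7 in NTL against control, with 8 in each at an unadjusted limma p under 0.05. The scavenger receptor gene Marco led with 3.91 in LFA (adjusted p = 0.000173 by limma) and 3.56 in NTL. The mean of the macrophage list was 1.60 to 2.33 in LFA and 1.98 to 2.37 in NTL, relative to control, and −0.37 to 0.52 in the other 3 groups. Of 9 fibroblast and matrix genes, 1 was called higher in LFA (Col3a1, 1.2) and 4 in NTL (Col1a1 1.67, Col3a1 1.64, Lum 1.49, Col1a2 1.30). Means were higher for 7 in LFA and 8 in NTL, with 5 and 6 at an unadjusted limma p under 0.05. Of 12 skeletal muscle genes, 2 were called lower in LFA (Myh7, −1.12, and Acta1, −1.01). In NTL 5 were called lower (Actn3, −2.01, Tnnt3, −1.97, Pvalb, −1.95, and Myh1, −1.34, among them). All 12 had lower means than control in both groups, with 11 in each at an unadjusted limma p under 0.05. The mean of the muscle list ran from −1.44 to −0.68 in LFA, from −1.51 to −1.15 in NTL, and from −0.14 to 0.08 in control. Of 7 adipocyte genes, 1 was called lower in LFA (Cidec, −1.03) and 3 in NTL (Retn, −1.95, Cidec, −1.53, and Adipoq, −1.39). All 7 had lower means in both groups, with 2 in LFA and 5 in NTL at an unadjusted limma p under 0.05. Liver genes gave 0 calls of 12 and lung epithelium genes 0 of 3 in either comparison, and at an unadjusted p under 0.05 there were 0 liver genes in both and 0 and 1 lung genes in LFA and NTL. Between LFA and SFA, 5 of 9 macrophage genes were called higher, and 0 of 9 fibroblast, 0 of 12 muscle, and 0 of 7 adipocyte genes were called, with 2, 6, and 1 at an unadjusted p under 0.05 in limma. With every level taken relative to the array, the part of these shifts in the mesothelial values was not tested.

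**Figure D5:**
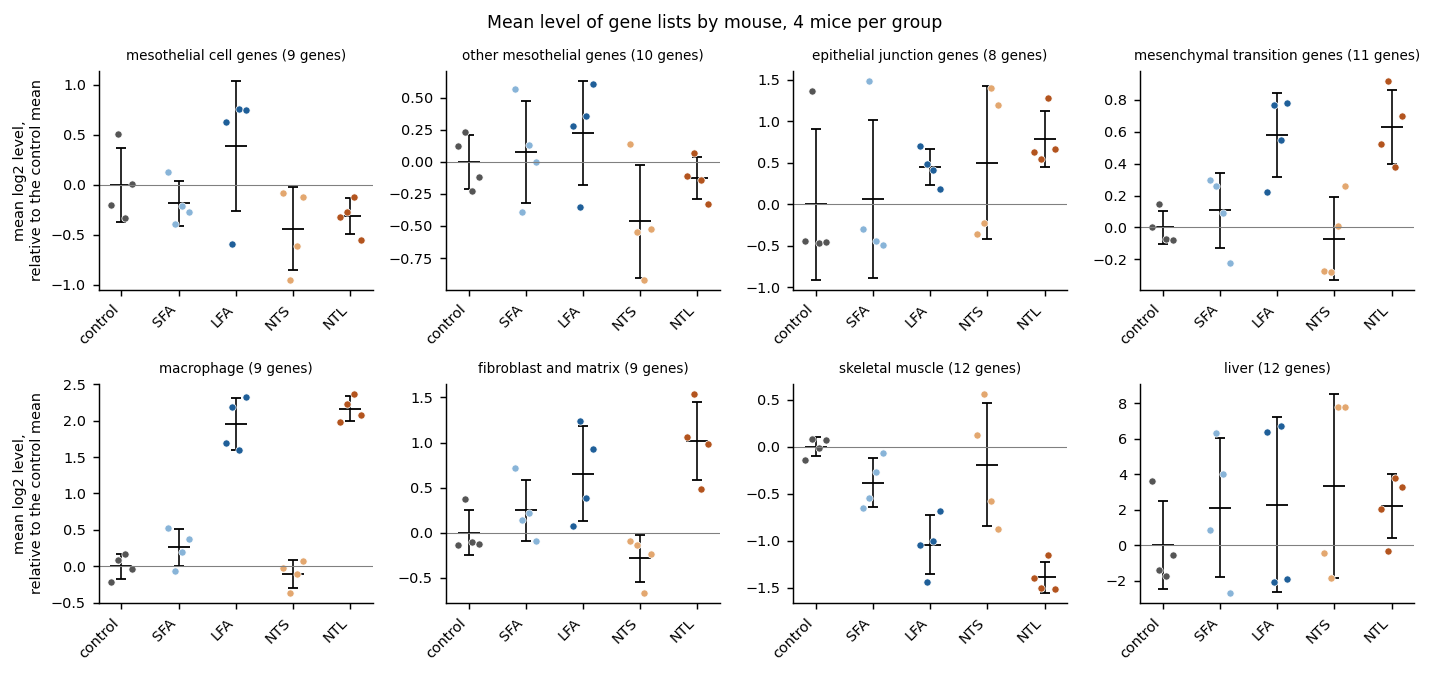
Mean log2 level of 8 gene lists on each array, relative to the mean of the control arrays; points are mice, and the black marks give the mean and SD of 4 mice. Each list has its own vertical scale. The macrophage list lies at 1.60 or above in all 8 long-fiber mice, and the mesothelial cell genes lie between −0.59 and 0.76 in LFA and −0.55 and −0.12 in NTL.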

How the data were processed

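RNA of each diaphragm was labeled by the authors with Cy3 and hybridized to a 1-color Agilent mouse array. The deposited scanner files (Agilent Feature Extraction 10.7.3.1, NCBI37 positions) hold a background-subtracted intensity for each spot. A deposited table from the authors holds log2 values, a single column for each group, normalized in GeneSpring and centered per probe, with column medians of −0.11 to 0.12. Its exact normalization is not given in the sources used here, and it served as an alternative only.

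Outlier spots, 92 to 204 on each array, were dropped, and saturation was marked on 0 spots. Spots of a probe were averaged, the 75th percentile of each array was subtracted on the log2 scale, and probes well above background on at least 4 of 20 arrays were tested. All 5 groups were fitted together in limma 3.58.1 (R 4.3.3), with Benjamini-Hochberg adjustment over 36920 probes. Each gene stands by the probe with the highest mean, and for each of the 9 tested genes the 3 other genes with the highest Pearson r over 20 arrays are named. List genes are named where called in LFA or NTL against control, up to 4 per list by size, or up to 4 where none was called, and names from NTL against NTS were added after seeing the values. Some genes that these rules select are not reported here. All 10 names were found in the GRCm38.p6 gene table. The genes and lists were chosen with earlier results of these data known. The 4 mice of a group were separate animals. No array duplicated another (pairwise r of 0.865 to 0.986). The number of arrays limits the precision.

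The alternatives were quantile normalization, the array median, normexp with an offset of 50, testing every probe, testing probes well above background on 20 arrays, the authors' table, slide and replicate number as blocks, only the groups compared, the methods' unequal-variance analysis of variance, probes averaged by gene, and leaving out each array or NTS replicates 3 and 4. Leaving out the 5 arrays with most liver transcript and an index of RNA ends as a covariate were chosen after seeing the data.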

Additional observations from a re-analysis of the deposited data

Results flagged for a closer look

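In 4 of 50 sets of 4 mice, 1 mouse stood apart from the rest by Dixon's test, and chance flags about 1 in 20. Krt8 in control replicate 2 was at 3.11, where the other control mice were at 1.85 to 2.04. Lrrn4 in control replicate 3 was at 1.76, below the 1.97 to 2.01 of the other control mice. Wt1 in NTL replicate 2 was at 4.38, above the 3.36 to 3.47 of the other NTL mice, and without this mouse the difference between NTL and NTS was 1.51 with the highest adjusted p of any single omission, 0.0457. The mean of the 9 mesothelial genes in LFA replicate 2 was −0.59, against 0.63 to 0.76 in the rest of the group.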

How the results depend on the processing

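Between NTL and NTS, the count of mesothelial genes called was 1 as reported. It was 0 with slide as a block, 0 with only the groups compared, 0 by the methods' analysis of variance, and 0 without the 5 arrays highest in liver genes, and 1 to 2 when single arrays were left out. The 2 without NTS replicate 1 were Wt1 and Lrrn4 (1.11). For Wt1 those fits gave 1.87, 1.75, 1.75, and 1.49, and 1.48 to 2.05 without single arrays, with adjusted p from 0.000899 to 0.131 over all alternatives. Between LFA and SFA the count was 1 with the index of RNA ends as a covariate, which was Wt1 at 1.19. The causes of these changes were not tested.

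Changes that turned sign were not called. Without the 5 arrays, Krt8 in LFA was −0.06 and the length interaction of Krt18 was −0.01. Without these arrays and without NTS replicates 3 and 4 alike, NTS against control gave −0.49 for Krt8 and 0.19 for Upk3b, and NTL against NTS gave 0.23 for Krt18 and 0.07 for Krt8. With slide as a block, LFA against SFA gave −0.02 for Krt18 and 0 for Krt8. Msln in NTL was 0.07 under quantile normalization. Of 2448 alternative values of 72 changes, 91 changed sign, 41 of them on leaving out 1 array. With the replicate block, NTL against NTS kept a count of 1 (Wt1 1.75, adjusted p 0.0216). Arrays of the same replicate number had correlated deviations of −0.68 to 0.69 over 40 pairs, so the numbers did not pair the mice. The authors' table has 1 value per group and allowed no test.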
